A study of Homo sapiens with 5 samples.

Results

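Binding of the transcription factors (TFs) Fra-1, MYC and E2F1 was examined at 9 genes of the p53 family and of apoptosis. They are TP63 and TP73, MDM2 and MDM4, BAX, BBC3 and PMAIP1, APAF1, and GADD45A. The genes were listed by name, and all 9 were found among the 20098 protein-coding genes annotated on chromosomes 1 to 22 and X. Peaks were counted for a gene when they overlapped its body or the 10 kb on either side. This gave 10 of the 17320 Fra-1 peaks, 5 of the 4867 MYC peaks and 35 of the 36933 E2F1 peaks. The peaks came from ChIP-Seq of MDA-MB-231 LM2 cells, given as untreated in the labels, a lung-metastatic derivative of a triple-negative breast cancer line, grown in medium with serum. There was 1 library for each of the 3 antibodies, and 1 input DNA library without antibody served as the control for all of them. The cells are a single line that carries a mutant p53, and binding of p53 itself was not analysed here.

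As background, p63 and p73 are paralogs of the tumor suppressor p53 and bind similar DNA elements, and each gene has an upstream start site for full-length proteins and an internal start site for shorter isoforms that lack the activation domain. MDM2 and MDM4 encode related proteins that hold p53 in check, MDM2 as its main ubiquitin ligase. BAX, BBC3 (PUMA) and PMAIP1 (NOXA) encode proteins of the BCL2 family that open the outer mitochondrial membrane or set off that step, APAF1 forms the apoptosome once cytochrome c is released, and GADD45A is a stress sensor of growth arrest and DNA damage. Several of these genes are textbook targets of p53, and TP73 and APAF1 are also known as targets of E2F1. Fra-1 is an AP-1 subunit, which pairs with JUN proteins on the AP-1 element, MYC pairs with MAX on the E-box, and E2F1 drives genes of cell-cycle entry and, when deregulated, of apoptosis.

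The libraries held between 19072119 and 27377480 tags, and between 10758036 (input) and 23853621 (MYC) after 1 tag per position was kept. For each peak the pileup is the whole part of the number of fragments over the summit, scaled down to the input library, and fold enrichment is the scaled pileup over the local input background. Over the 50 peaks the pileup ranged from 7 to 123, so the weakest rest on few fragments. A promoter was the window from 2 kb upstream to 2.5 kb downstream of any annotated transcription start site (TSS). Because no library was replicated, no difference between factors could be tested against replicate spread, and the values below describe these 3 libraries. The share of all protein-coding genes that met the same criterion is given with the gene counts from the full peak lists. It was not computed for reduced lists or other alternative settings.

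E2F1 peaks were found at every gene, whereas Fra-1 and MYC peaks were found at some of them. This contrast was not kept at the 9 genes when the lists were made equally long. With each list reduced to its 4867 strongest peaks by −log10 q, E2F1 promoter peaks were present at 2 genes and any E2F1 peaks at 3, as for MYC (2 and 3), and Fra-1 gave 1 and 2. Without the share of all protein-coding genes at this cut, these reduced counts cannot be placed above or below it. The counts that follow are for the full lists. An E2F1 promoter peak was present at 8 of the 9 genes, the exception being TP63, against 61.3% of all protein-coding genes. Fra-1 promoter peaks were found at 2 genes, BBC3 and GADD45A (13.2% of all genes), and MYC promoter peaks at 2 genes, MDM4 and BBC3 (17.8% of all genes). Thus BBC3 alone had promoter peaks of all 3 factors (4.67% of all genes), MDM4 had MYC and E2F1 without Fra-1 (13.1%), and GADD45A had Fra-1 and E2F1 without MYC (7.67%). At 5 genes, TP73, MDM2, BAX, PMAIP1 and APAF1, E2F1 was the only factor with a promoter peak (35.8% of all genes). TP63 had no promoter peak of any factor, like 37.8% of all genes. When gene bodies and flanks were included, E2F1 peaks were present at 9 genes (71.9% of all genes), Fra-1 peaks at 5 (33.5%) and MYC peaks at 3 (25.0%). BAX, TP63 and TP73 then had a Fra-1 peak and BAX a MYC peak. No region in which peaks of all 3 factors overlapped was found at any of the 9 genes, and 5.53% of all genes had such a region.

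**Figure D1:**
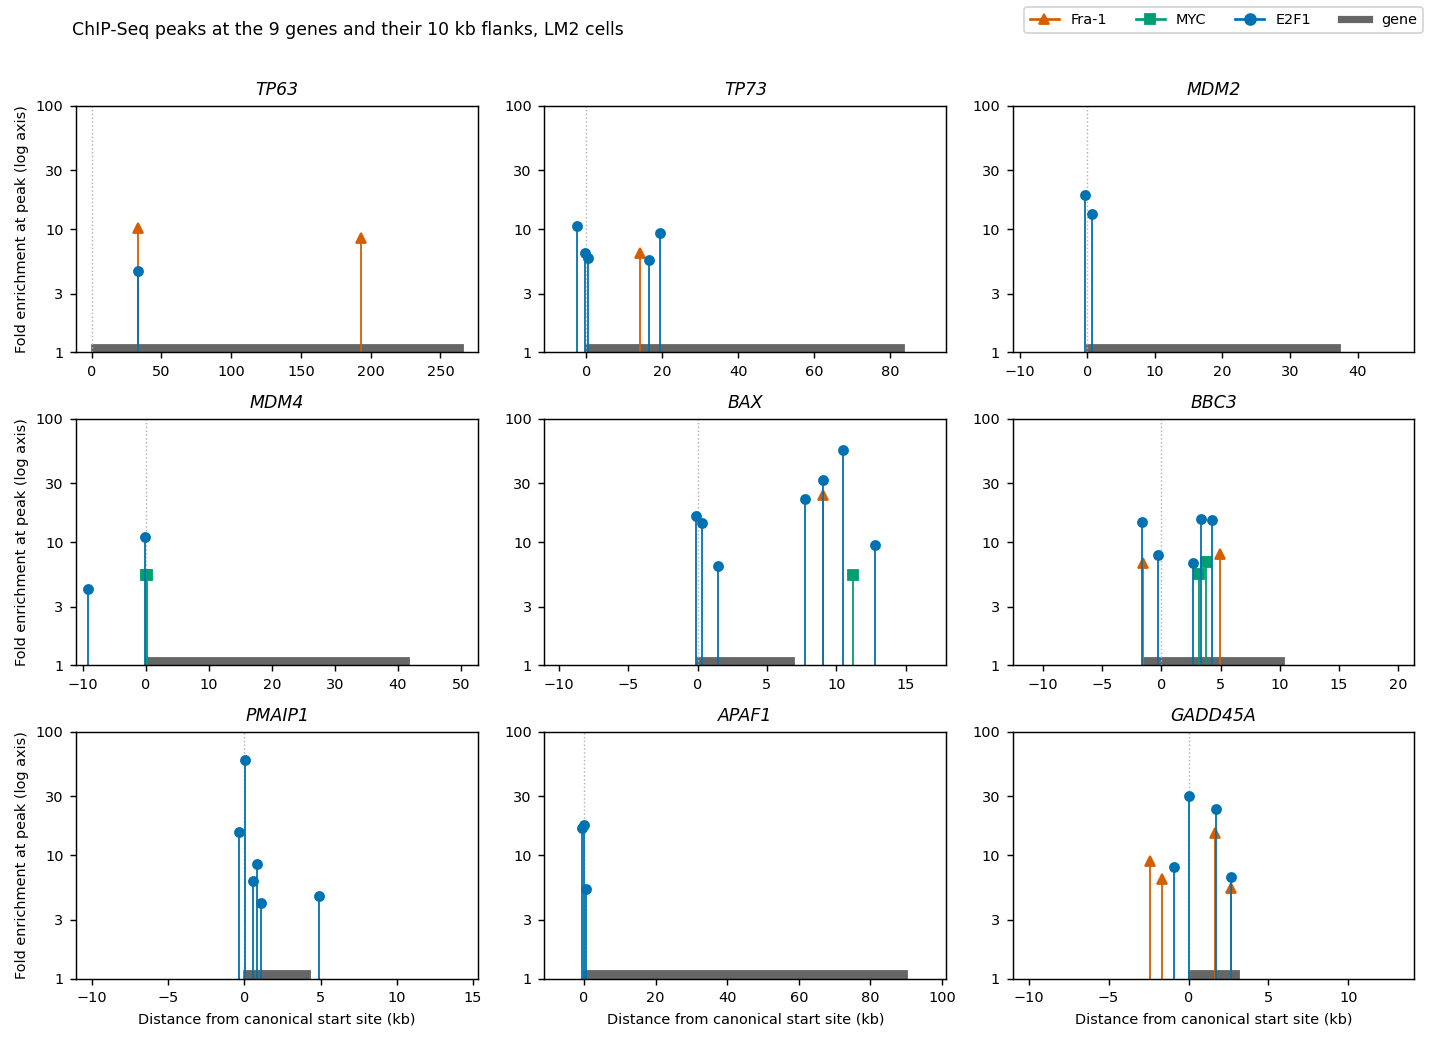
Each panel shows 1 gene with the distance of each peak summit from the canonical TSS in kb (horizontal) and the fold enrichment of the peak on a log axis (vertical), 1 library per factor. E2F1 peaks (circles) sit around the start site of every gene but TP63, Fra-1 peaks (triangles) are most numerous at GADD45A with 4, and MYC peaks (squares) appear at MDM4, BAX and BBC3 only.

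Peaks were not spread evenly over the 9 genes. Together the genes and flanks cover 725 kb, and they held 4.83 E2F1, 1.38 Fra-1 and 0.689 MYC peaks per 100 kb. All protein-coding genes with their flanks held 2.03, 0.739 and 0.300 peaks per 100 kb, in the same order. The E2F1 density was 25.9 per 100 kb at BAX, 24.7 at PMAIP1, 17.3 at GADD45A and 15.7 at BBC3, which are the shortest genes of the set. It was 4.82 at TP73, 3.49 at MDM2, 3.24 at MDM4, 2.72 at APAF1 and 0.350 at TP63, the longest gene with 266 kb. The BAX value includes E2F1 peaks downstream of the gene that lay in promoter windows of neighbouring genes. At least 3 E2F1 promoter peaks were called at 5 genes (17.4% of all genes), and 5 peaks or more at BBC3 and PMAIP1 (4.15% of all genes). When peaks of a factor within 1 kb of each other were merged, the 35 E2F1 peaks became 17.

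Of the p53 paralogs, TP63 had peaks in introns alone and TP73 had weak E2F1 promoter peaks. TP63 lies on chromosome 3 from 189349178 to 189615065 (plus strand, hg19), and neither its upstream nor its internal group of start sites had a promoter peak. A pair of Fra-1 peaks lay in its introns. The stronger was in intron 1, 33156 bp downstream of the canonical TSS, with a pileup of 28, 10.1-fold enrichment and a −log10 q of 19.9. The other, in intron 4 and 193355 bp downstream, had a pileup of 23 and a fold enrichment of 8.39. The only E2F1 peak of TP63 fell on the intron 1 site. Its summit was 41 bp from the Fra-1 summit, and with a fold enrichment of 4.57 it was one of the weakest E2F1 peaks of the set. The AP-1 element TGACTCA, the site bound by Fra-1 dimers, lay 2 bp from the Fra-1 summit and 43 bp from the E2F1 summit. In the reference sequence below (plus strand, 5′ to 3′, as for all sequences here), the element is in capitals.
TP63 intron 1 Fra-1 summit, chr3:189382284-189382384: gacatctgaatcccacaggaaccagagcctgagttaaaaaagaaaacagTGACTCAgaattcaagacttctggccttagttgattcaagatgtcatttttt

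TP73 lies on chromosome 1 from 3569080 to 3652765 (plus strand). It had 5 E2F1 peaks, all of low pileup (7 to 14). Of its pair of promoter peaks, the summit of one was 385 bp upstream of the canonical TSS with a fold enrichment of 6.43, and the summit of the other was in intron 1, 329 bp downstream, with a fold enrichment of 5.86. The strongest of these promoter peaks was below all but 4.40% of the 12321 genes with an E2F1 promoter peak, so the promoter of this known E2F1 target ranked among the weakest. A stronger E2F1 peak (fold enrichment 10.5) lay 2394 bp upstream, just outside the promoter window, and like both promoter peaks it was in a promoter window of WRAP73, a gene transcribed in the opposite direction. Further E2F1 peaks with fold enrichments of 5.61 and 9.30, and the only Fra-1 peak (6.45), were in intron 1 between 14163 and 19440 bp downstream of the TSS. The Fra-1 peak and the weaker of these E2F1 peaks overlapped a promoter window of the antisense gene TP73-AS3. None of the start sites for the shorter p73 isoforms had a peak in its window.

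MDM2 and MDM4 shared E2F1 binding close to the start site and differed in MYC. MDM2 lies on chromosome 12 from 69201957 to 69239324 (plus strand), and E2F1 peaks were its only peaks. The stronger had a pileup of 56 and a fold enrichment of 19.0, with the summit 292 bp upstream of the canonical TSS. The other had a pileup of 38 and a fold enrichment of 13.2, and its summit was in intron 1, 716 bp downstream of the canonical TSS and 109 bp upstream of an internal start site. This internal start belongs to the inner promoter of MDM2, which is known as its p53-responsive promoter. An AP-1 element (capitals) lay 9 bp from that E2F1 summit, although no Fra-1 peak was called within 10 kb of the gene.
MDM2 inner promoter E2F1 summit, chr12:69202623-69202723: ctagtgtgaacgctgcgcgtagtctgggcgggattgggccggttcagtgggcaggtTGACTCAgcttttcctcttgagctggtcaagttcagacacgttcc
The nearest Fra-1 summit was 61.3 kb upstream of the MDM2 start site, and the nearest MYC summit 121 kb upstream.

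MDM4 lies on chromosome 1 from 204485507 to 204527248 (plus strand). Its E2F1 promoter peak had a pileup of 54 and a fold enrichment of 11, with the summit 144 bp upstream of the canonical TSS. The pileup was close to the 56 of MDM2, while the fold enrichment was lower, and the input background under the peak was between 3.98 and 4.07 fragments at MDM4, against 2.00 to 2.05 at MDM2. A weak E2F1 peak (fold enrichment 4.14) lay 9194 bp upstream. A pair of MYC peaks sat within the E2F1 promoter peak, with summits 36 bp upstream and 160 bp downstream of the canonical TSS. Both had a pileup of 10, 5.39-fold enrichment and a −log10 q of 3.79. These were weak MYC peaks, since the MDM4 promoter exceeded 11.5% of the 3587 genes that MYC occupied at a promoter, and they were absent when −log10 q of at least 5 was required. Neither summit had an E-box (CACGTG) within 50 bp. The sequence at the upstream summit shows none of the motifs searched, with the bases in annotated untranslated exons left out.
MDM4 MYC summit, chr1:204485448-204485506: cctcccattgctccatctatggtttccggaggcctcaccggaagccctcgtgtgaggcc

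Among the 3 genes of the BCL2 family in this set, E2F1 was found at all 3 promoters and was strongest at PMAIP1. PMAIP1 lies on chromosome 18 from 57567228 to 57571537 (plus strand) and had 6 E2F1 peaks, 5 of them in the promoter window, and no Fra-1 or MYC peak. The strongest had its summit in exon 1, 37 bp from the canonical TSS, with a pileup of 96, 59.2-fold enrichment and a −log10 q of 166. It exceeded 98.1% of the genes with an E2F1 promoter peak, and 92.2% when ranked by pileup. Another promoter peak had its summit 348 bp upstream of the TSS with a fold enrichment of 15.4, and those in intron 1 had fold enrichments of 6.16, 8.56 and 4.12. The sixth, downstream of the gene, had a fold enrichment of 4.70. None of these 6 summits had an E2F motif within 50 bp, and the part of the strongest peak upstream of exon 1 reads as follows, without capitals because no motif matched.
PMAIP1 strongest E2F1 peak, upstream part, chr18:57567135-57567227: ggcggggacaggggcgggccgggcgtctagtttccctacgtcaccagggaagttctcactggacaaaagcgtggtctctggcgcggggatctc

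BAX lies on chromosome 19 from 49458072 to 49465055 (plus strand) and had 9 peaks. The 3 E2F1 peaks in its promoter window had fold enrichments of 16.4, 14.3 and 6.43, with summits 154 bp upstream and 310 and 1495 bp downstream of the canonical TSS. The strongest was the only E2F1 peak of the 9 genes with an E-box within 50 bp of its summit, 18 bp away (capitals in the line below).
BAX promoter E2F1 summit, chr19:49457928-49458028: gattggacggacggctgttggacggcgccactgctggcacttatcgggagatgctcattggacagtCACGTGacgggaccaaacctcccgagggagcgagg
The remaining 6 peaks of BAX lay downstream of the gene, toward FTL, which encodes the ferritin light chain. The strongest E2F1 peak of this group (pileup 123, fold enrichment 55.5) was 10451 bp from the BAX start site and in a promoter window of FTL. So were the only MYC peak (fold enrichment 5.44) and the only Fra-1 peak, whose fold enrichment of 23.9 and pileup of 54 were the highest of the 10 Fra-1 peaks. The Fra-1 summit was 21 bp from that of an E2F1 peak with a fold enrichment of 31.7, and an AP-1 element lay 31 bp from the Fra-1 and 10 bp from the E2F1 summit. All 6 downstream peaks were counted for BAX by distance, and each was in a promoter window of FTL or of the unnamed gene ENSG00000267898.
Fra-1 summit between BAX and FTL, chr19:49467121-49467221: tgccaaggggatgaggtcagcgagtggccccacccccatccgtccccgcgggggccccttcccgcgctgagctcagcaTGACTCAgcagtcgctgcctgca

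BBC3 lies on chromosome 19 from 47724079 to 47736023 (minus strand) and was the only gene with promoter peaks of all 3 factors. The peaks were distributed over the windows of several start sites. At the most upstream start site, a Fra-1 peak (pileup 12, fold enrichment 6.73) had its summit 3 bp upstream of the TSS and lay within an E2F1 peak with a fold enrichment of 14.6, with 50 bp between the summits. Closest to the canonical TSS was an E2F1 peak with a fold enrichment of 7.86 and the summit 272 bp upstream, which no Fra-1 or MYC peak overlapped. The window of the canonical TSS also held the Fra-1 and E2F1 peaks of the upstream start site, with summits 1570 and 1620 bp upstream. Inside the gene, around an internal start site, E2F1 peaks had fold enrichments of 15.1, 15.4 and 6.76. A pair of MYC peaks with fold enrichments of 6.90 and 5.48 and pileups of 9 and 7 lay within the 15.4-fold E2F1 peak. A second Fra-1 peak, in intron 3 with a fold enrichment of 8.0, overlapped the neighbouring E2F1 peak by 10 bp and no MYC peak. Each Fra-1 summit of BBC3 was within 10 bp of an AP-1 element (capitals), while no E-box lay within 50 bp of either MYC summit. The internal start site is that of a transcript with a retained intron, not annotated as protein-coding, and its peaks were also in a promoter window of MIR3191, a microRNA gene within BBC3.
BBC3 upstream start site Fra-1 summit, chr19:47736024-47736107: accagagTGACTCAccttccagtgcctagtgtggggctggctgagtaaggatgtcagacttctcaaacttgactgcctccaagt
BBC3 intron 3 Fra-1 summit, chr19:47729426-47729526: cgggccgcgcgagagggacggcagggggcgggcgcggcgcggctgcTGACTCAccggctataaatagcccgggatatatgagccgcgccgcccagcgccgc
With the canonical TSS alone the MYC peaks were no longer in a promoter window of BBC3, and the number of genes with all 3 factors fell from 1 to 0.

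APAF1 lies on chromosome 12 from 99039068 to 99129211 (plus strand) and had 3 E2F1 peaks and none of Fra-1 or MYC. Its start site lies close to that of IKBIP, which is transcribed in the opposite direction, and all 3 peaks were in promoter windows of both genes. The strongest had its summit in exon 1, 3 bp from the canonical TSS, with a pileup of 69 and a fold enrichment of 17.5. A peak of similar strength (pileup 64, fold enrichment 16.5) had its summit 513 bp upstream, toward IKBIP. The weakest, in intron 1, had a fold enrichment of 5.30. By fold enrichment the APAF1 promoter exceeded 37.2% of the genes with an E2F1 promoter peak, and by pileup 73.3%. The nearest summits of the other factors were 51.6 kb upstream of the start site for MYC and 109 kb downstream for Fra-1. The bases before the start site are shown because this summit is the closest to a canonical TSS of all E2F1 summits in the set, and no motif matched in them.
APAF1 start site, upstream part of the E2F1 peak, chr12:99038967-99039067: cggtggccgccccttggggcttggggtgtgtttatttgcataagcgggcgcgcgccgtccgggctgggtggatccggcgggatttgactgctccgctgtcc

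GADD45A lies on chromosome 1 from 68150884 to 68154017 (plus strand) and had the most Fra-1 peaks, with 4, and 4 E2F1 peaks. E2F1 was strongest at the start site, where a peak of 1551 bp had a pileup of 120, 30.3-fold enrichment and a −log10 q of 140, with the summit 17 bp from the canonical TSS. No Fra-1 peak overlapped it. The strongest Fra-1 peak was in intron 3, 1664 bp downstream, with a pileup of 44, 15.0-fold enrichment and a −log10 q of 39.1, and it exceeded 86.5% of the 2662 genes with a Fra-1 promoter peak. It lay within an E2F1 peak with a fold enrichment of 23.5 whose summit was 34 bp away. Intron 3 of GADD45A is known as the location of its p53 response element. A second shared site was in the last exon, 2659 bp downstream, where a Fra-1 peak (fold enrichment 5.45) and an E2F1 peak (6.65) had summits 19 bp apart. Upstream, Fra-1 peaks with fold enrichments of 6.36 at 1670 bp and 9.0 at 2422 bp overlapped no E2F1 peak, and the latter fell just outside the promoter window. An E2F1 peak at 895 bp upstream (7.97) overlapped no Fra-1 peak. AP-1 elements lay within 50 bp of 3 of the 4 Fra-1 summits, the exception being the summit in the last exon. The intron 3 site, with the element in its reverse complement TGAGTCA, and the bases before the start site, in which no motif matched, are compared below.
GADD45A intron 3 Fra-1 summit, chr1:68152498-68152598: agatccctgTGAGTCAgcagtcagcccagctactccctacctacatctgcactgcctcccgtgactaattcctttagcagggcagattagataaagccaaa
GADD45A start site, upstream part of the E2F1 peak, chr1:68150783-68150883: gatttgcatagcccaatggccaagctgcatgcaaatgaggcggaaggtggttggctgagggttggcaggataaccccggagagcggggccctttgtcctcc

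**Figure D2:**
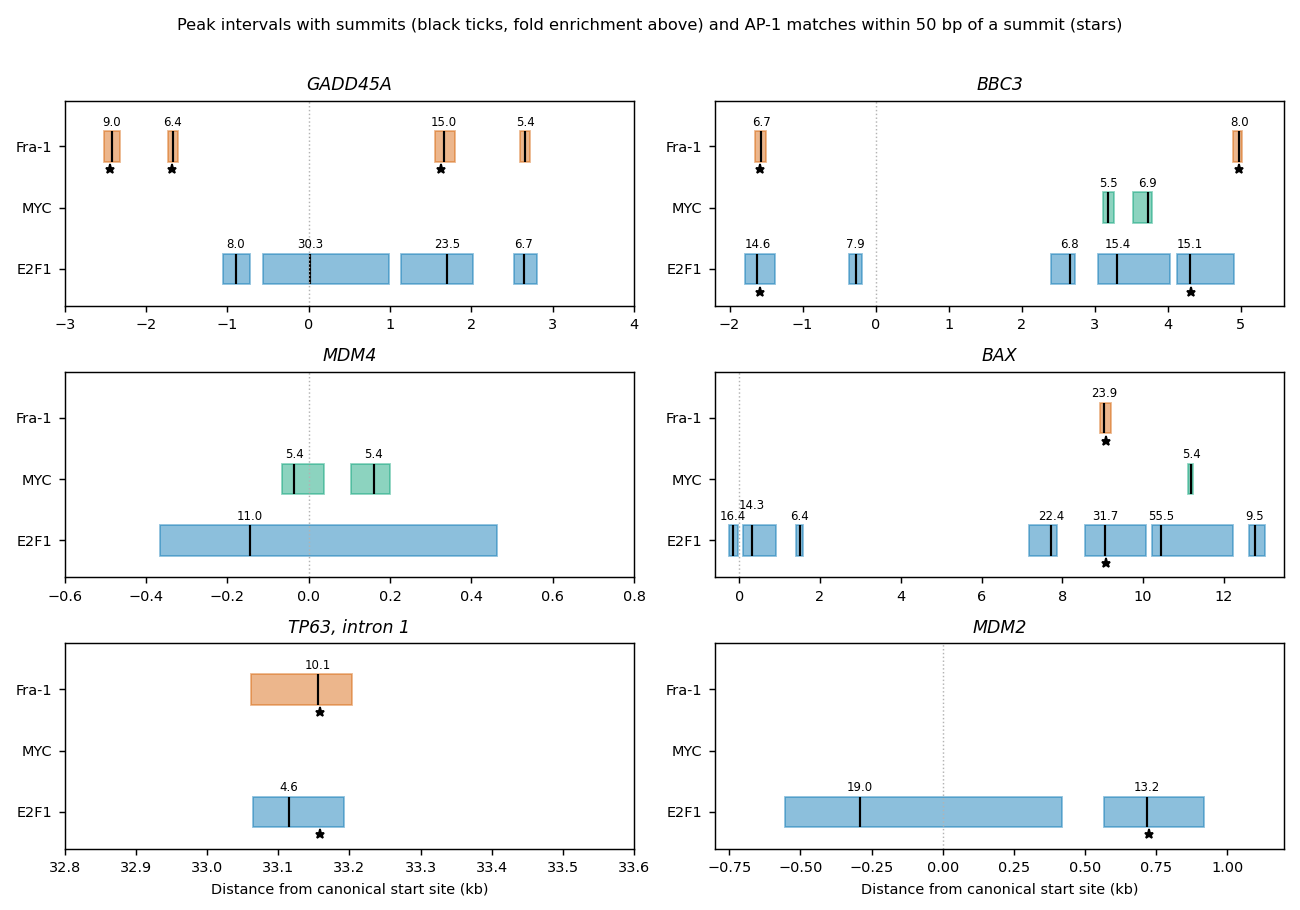
Peak intervals of the 3 factors at 6 genes, with distance from the canonical TSS in kb; black ticks are summits, numbers are fold enrichments and stars mark AP-1 elements within 50 bp of a summit. Fra-1 intervals fall inside E2F1 intervals at GADD45A intron 3 and its last exon, at the BBC3 upstream start site and downstream of BAX. They do so almost entirely at TP63 intron 1. MYC intervals fall inside E2F1 intervals at MDM4, BBC3 and BAX, and no position holds all 3 factors.

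The overlaps between factors were then counted over the 9 genes. All 5 MYC peaks overlapped an E2F1 peak, as did 96.1% of all MYC peaks. Of the 10 Fra-1 peaks, 6 overlapped an E2F1 peak, as did 61.5% of all Fra-1 peaks. None of the Fra-1 peaks overlapped a MYC peak, against 5.90% of all Fra-1 peaks, and so none of the 5 MYC peaks overlapped a Fra-1 peak, against 21.4% of all MYC peaks. Conversely, 6 of the 35 E2F1 peaks overlapped a Fra-1 peak and 3 a MYC peak, against 28.3% and 10.8% of all E2F1 peaks. Where Fra-1 and E2F1 overlapped, the summits were 19 to 50 bp apart at 5 of the 6 sites, and 678 bp apart at BBC3 intron 3, where the peaks shared 10 bp. The summits of overlapping MYC and E2F1 peaks were 108 to 741 bp apart.

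To compare strength, the strongest promoter peak of each gene was ranked among all protein-coding genes with a promoter peak of the same factor. For E2F1 the median over the 8 genes was 17.0, with a range of 6.43 to 59.2, and the median over all 12321 genes was 22 (interquartile range 13.4 to 32.5). PMAIP1 (59.2) and GADD45A (30.3) were above that median, and MDM2 (19.0), APAF1 (17.5), BAX (16.4), BBC3 (15.4), MDM4 (11) and TP73 (6.43) were below it. The order depended on the measure. By pileup GADD45A (120) came before PMAIP1 (96) and exceeded 98.4% of genes, and APAF1, MDM2, MDM4 and BAX were above the middle of all genes, whereas BBC3 and TP73 were below it on either scale. The median percentile of the 8 genes was 35.6 by fold enrichment and 58.5 by pileup. The input background under the 35 E2F1 peaks lay between 0.397 and 5.04 fragments, so equal pileups gave unequal fold enrichments. Its part in the ranks was not tested. For MYC, MDM4 (5.39) and BBC3 (6.90) were below the median of all genes (7.22). For Fra-1, GADD45A (15.0) was above and BBC3 (8.0) just below the median of 8.38. These MYC and Fra-1 values of BBC3 come from peaks in the window of its internal start site. With the canonical TSS alone, the Fra-1 percentile of BBC3 was 34.1 instead of 46.2, and it had no MYC promoter peak.

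**Figure D3:**
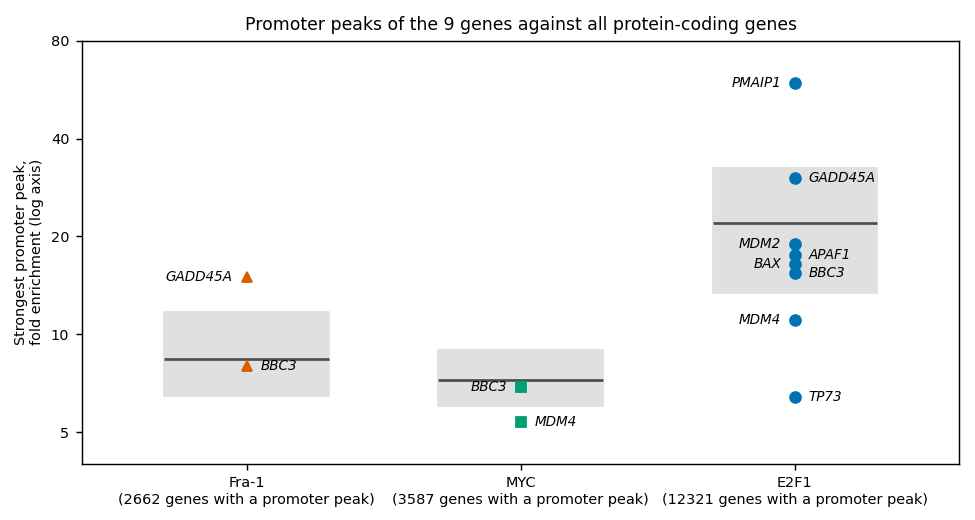
Fold enrichment of the strongest promoter peak (log axis) of each gene that has one, by factor; gray boxes give the interquartile range and lines the median over all protein-coding genes with a promoter peak of that factor. PMAIP1 (59.2) lies above and TP73 (6.43) and MDM4 (11) lie below the E2F1 box, MDM4 (5.39) lies below the MYC box, and GADD45A (15.0) lies above the Fra-1 box.

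Next, the sequence at the summits was examined. The AP-1 element (TGACTCA, or TGAGTCA on the other strand) lay within 50 bp of 7 of the 10 Fra-1 summits, against 53.3% of all Fra-1 summits. They belonged to TP63, BAX, BBC3 and GADD45A, and the distance from element to summit was 1 to 38 bp. It also lay at 6 of the 35 E2F1 summits (12.2% of all E2F1 summits), of which 3 shared the element with a Fra-1 summit, at TP63, at the upstream start site of BBC3 and downstream of BAX. The other 3 were at TP73 intron 1, the inner promoter of MDM2 and BBC3 intron 2. The E2F motif (TTTCCCGC, TTTCGCGC, TTTGCCGC or TTTGGCGC, both strands) lay at 0 of the 35 E2F1 summits and at 1.68% of all E2F1 summits. Within 100 bp it was found at 2, in MDM2 and TP73, and at 2.70% of all E2F1 summits. The E-box lay at 0 of the 5 MYC summits and at 16.8% of all MYC summits, and at 1 of the 35 E2F1 summits (2.56% of all). The bases around the E2F1 summits of the 9 genes had a median of 60.4% G and C, against 58.4% for all E2F1 summits, and those around the Fra-1 summits 48.5%, against 46.5%.

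Finally, 61 further genes of the same pathways were examined in 4 groups. E2F1 promoter peaks were found at 54 of them (88.5%), MYC promoter peaks at 14 (23%) and Fra-1 promoter peaks at 18 (29.5%), against the 61.3%, 17.8% and 13.2% of all protein-coding genes given above. With equal numbers of peaks, the counts were 25 for E2F1, 14 for MYC and 6 for Fra-1, so the order of Fra-1 and MYC turned. The shares of all protein-coding genes at equal numbers were not computed. The median fold enrichment of the strongest promoter peak was 26.1 for E2F1, 8.96 for MYC and 10.5 for Fra-1, and over all genes it was 22, 7.22 and 8.38. Promoter peaks of all 3 factors were found at 6 of the 61 genes (9.84%), against 4.67% of all protein-coding genes.

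**Figure D4:**
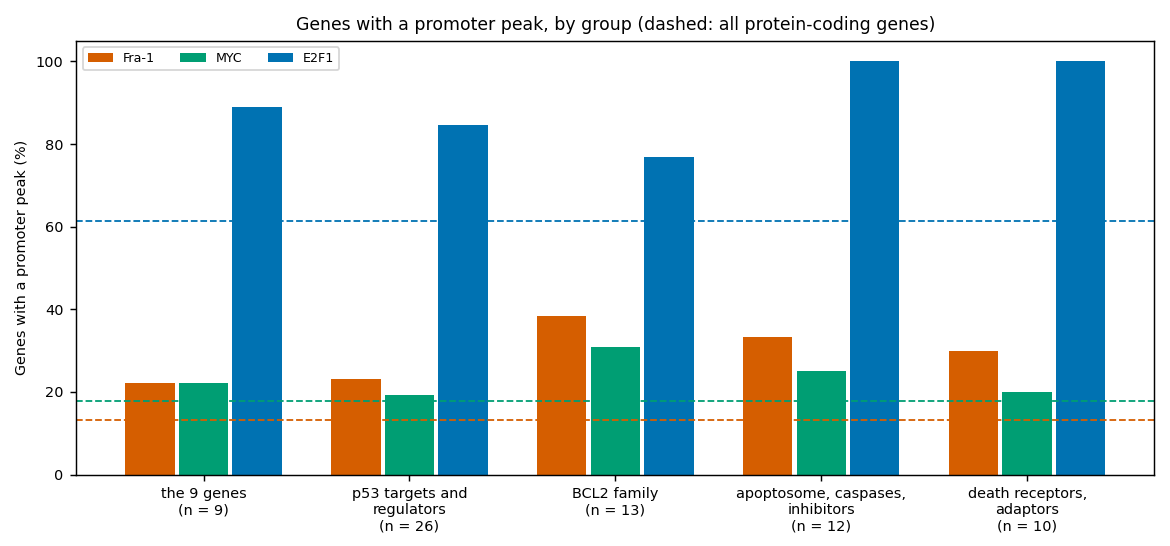
Percentage of genes with a promoter peak of each factor in the 9 genes and in 4 groups of further genes; dashed lines give the percentage over all protein-coding genes (61.3% for E2F1, 17.8% for MYC and 13.2% for Fra-1). The E2F1 bars lie above their dashed line in every group, and the bars of MYC lie nearest to theirs.

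Of the 26 p53 targets and regulators, 22 had an E2F1, 5 a MYC and 6 a Fra-1 promoter peak. For these and the groups below, the shares of all protein-coding genes were 61.3%, 17.8% and 13.2%, in the same order. GADD45B, a paralog of GADD45A, had the strongest E2F1 peak of the group (fold enrichment 85.4), followed by PPM1D (48.4), a phosphatase that dampens p53 signaling, and DDB2 (42.7), a DNA damage sensor. All 3 factors were found at AEN, an apoptosis-enhancing nuclease (Fra-1 26.8, MYC 14.6, E2F1 30.5), at PPP1R13L, an inhibitor of p53 (21.3, 12.7 and 35.7), and at GADD45B (15.1, 8.96 and 85.4). A region in which peaks of all 3 overlapped was present in the gene or its 10 kb flanks at each of these 3 genes, against 5.53% of all genes.

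Of the 13 further genes of the BCL2 family, 10 had an E2F1, 4 a MYC and 5 a Fra-1 promoter peak. Among these 13, the strongest E2F1 peaks were at the survival genes MCL1 (68.9) and BCL2L2 (36.5) and at BAD (31.9). BAD promotes cell death and was the only gene of these 13 with all 3 factors (Fra-1 28.9, MYC 5.31). All 12 genes of the apoptosome, the caspases and their inhibitors had an E2F1 promoter peak, 3 had a MYC and 4 a Fra-1 promoter peak. BIRC5, which encodes survivin, had fold enrichments of 66.3 for E2F1, 10.3 for MYC and 7.60 for Fra-1. CASP2, a caspase linked to DNA damage and cell stress, had an E2F1 peak alone (43.8). CASP8, the initiator caspase of death receptors, had all 3 factors (23.1, 9.21 and 5.88 for E2F1, MYC and Fra-1). A region in which peaks of all 3 overlapped was present at BIRC5 but not at BAD or CASP8. All 10 death receptors and adaptors had an E2F1 promoter peak, 2 had a MYC and 3 a Fra-1 promoter peak. The MYC share here (20%) and among the p53 targets and regulators (19.2%) was near the 17.8% of all genes. E2F1 was strongest at the decoy receptor TNFRSF10D (75.8), at PIDD1 (62.6, with a MYC peak of 19.8) and at the adaptor FADD (48.2, with a Fra-1 peak of 18.0). PIDD1, like some other listed genes without promoter peaks of all 3 factors, had a region in which peaks of all 3 overlapped.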

How the data were processed

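The data are the peak lists of 3 ChIP-Seq libraries from LM2 cells, 1 each for Fra-1, MYC and E2F1. For the EZH2 and input libraries no peak list was used here. Per the labels and the paper's methods, cells were crosslinked with 1% formaldehyde, reads were trimmed with Trimmomatic 0.27 and aligned with Bowtie 0.12.5 to masked hg19, and duplicates were removed. The authors called peaks in each library separately against the same input with MACS2 2.0.10.20120913, keeping those with a q-value of 0.01 or less.

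The signal deposited by the authors is the pileup at the summit, with the larger library scaled toward the smaller per the file headers. The deposited fold enrichment is the ratio of pileup to the local input background, each with a pseudocount of 1, and significance was deposited as the −log10 of each q-value. Libraries differ in depth, so strength was ranked within a factor only. All deposited pileups are whole numbers. Taken as the whole part of a scaled pileup, they gave an input background within 0.005 of a whole number of fragments at 34.0% (MYC) to 60.0% (Fra-1) of peaks, and taken as they stand at 1.19% to 3.25%. They were read as the former, and the background is given as the range that this leaves.

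Coordinates are hg19, read with the GRCh37 genome and GENCODE 44 mapped to it, and 0 of the 59069 peaks used ran beyond the end of a chromosome. Overlap was counted from 1 bp. The search for motifs covered both strands and 50 bp on each side of a summit. Printed sequences are from the reference genome and leave out untranslated exon bases. Percentiles are shares of the genes with a promoter peak of that factor whose strongest peak was weaker. The alternatives were other peak thresholds, equal numbers of peaks, other promoter windows, start sites and flanks, merged peaks, stricter overlap, other measures of strength and wider motif windows. The 9 genes were listed by name, and these genes, the pathway lists and the rules were chosen with earlier results of these data known. Of the pathway lists, each group's 3 genes with the highest fold enrichment and up to 6 genes with all 3 factors were named, except 1 gene that is not reported here. Sequences at the TP63, MDM2 and BAX AP-1 elements and at the upstream start site of BBC3 were added after their values were seen. The functions were tested on simulated peaks and motifs. Scripts ran in Python 3.11.15 (pandas 2.3.3, numpy 2.4.6), and figures were drawn with matplotlib 3.10.9.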

Additional observations from a re-analysis of the deposited data

How the results depend on the processing

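Taken singly, 90 of the counts and medians under the alternatives were classed as unchanged and 30 as moved, and for single-gene percentiles 17 and 29. The unchanged class is broad, and includes the E2F1 peaks falling from 35 to 24 with gene bodies only. The classes do not cover the order between factors, which turned for Fra-1 and MYC on the pathway lists with equal numbers of peaks. With −log10 q of at least 5, MYC was left with 1 gene with a promoter peak, 1 gene with any peak and 1 peak. With each list reduced to its 4867 strongest peaks, E2F1 was left with 2 genes with a promoter peak, 3 genes with any peak, 5 peaks and 25 genes of the pathway lists, and Fra-1 with 1, 2, 3 and 6 in the same order, and the number of genes with all 3 factors was 0. With windows of 1 kb, Fra-1 promoter peaks remained at 1 gene, with a median percentile of 49.2. With the canonical TSS only, MYC promoter peaks were found at 1 gene and all 3 factors at 0, and the median percentile was 62.0 for Fra-1 and 11.4 for MYC. Start sites of protein-coding transcripts gave 1 gene for MYC and 0 for all 3 factors. Flanks of 50 kb gave 17 Fra-1 and 57 E2F1 peaks, and merging within 1 kb gave 3 MYC and 17 E2F1 peaks. Ranked by −log10 q, the median percentile for E2F1 was 46.2. Ranked by pileup, it was 58.5 for E2F1, 21.4 for MYC and 57.1 for Fra-1. Motif windows of 100 bp gave E-boxes at 3 and E2F motifs at 2 of the E2F1 summits, against 4.98% and 2.70% of all E2F1 summits. No paired analysis was possible because each factor has 1 library. The absence of a peak at this depth does not show the absence of binding.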

Other observations

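The p53 consensus, a pair of decamers with up to 13 bases between them, was searched without mismatches. It matched in 0.520% of the promoter windows of 19819 canonical start sites and in 0 of those of the 9 genes. Over the genes and flanks it matched at 2 positions, 3986 bp from the nearest summit downstream of GADD45A and 35671 bp from the nearest summit in TP63, and neither was in a peak. Response elements with mismatches are not found by this search.

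Among genes without a peak of a factor, Fra-1 summits lay 18.6 kb downstream of the PMAIP1 start site and 77.6 kb upstream of that of MDM4. The nearest MYC summit to TP73 was 109 kb upstream and that to GADD45A 147 kb downstream.

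For the genes with promoter peaks of more than 1 factor, the protein-coding gene with the most similar log2 fold enrichments over the 3 libraries was PIGT for BBC3 (Euclidean distance 0.047, with a Fra-1 peak of 7.90, a MYC peak of 6.88 and an E2F1 peak of 15.9). It was CAMK1D for MDM4 (distance 0.069, with 5.34 for MYC and 10.5 for E2F1) and SIPA1L1 for GADD45A (distance 0.062, with 14.5 for Fra-1 and 29.7 for E2F1). A factor without a promoter peak was entered as no enrichment, so the MDM4 and GADD45A matches include a shared absence. Each match is the closest of all protein-coding genes outside the set, and the distances usual for other genes were not examined.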
